A study of Mus musculus with 6 samples.

Results

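The 42 genes described here make the proteins that license replication origins, unwind and copy DNA in S phase, supply its nucleotides and histones, and switch these steps on through E2F factors. They were taken as a list of gene symbols, and all 42 were found among the 24493 symbols of the deposited table. Mouse naive CD4 T cells from the spleen had been induced in culture towards regulatory T (Treg) cells, which hold other immune cells in check, and their mRNA was sequenced in 6 libraries. WT stands for 3 wild-type libraries, and Ifnar1-SA for 3 libraries of cells with an altered type I interferon receptor chain. In published work the SA knock-in swaps a serine needed for breakdown of the receptor for alanine. The sources used here give no strain, sex, age, culture conditions, time in culture or number of animals. Whether the libraries of 1 genotype are separate animals or separate cultures is not stated, and p-values therefore reflect only how far these samples spread, which may be technical. TPM, the unit of all levels, is a gene's share of a library's transcripts after correction for length, and read depth cannot be read from it.

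Before S phase the origin recognition complex, Cdc6 and Cdt1 load the MCM2-7 ring onto DNA. At the start of S phase Cdc45 and GINS join the ring to make the working helicase, and primase, polymerases, the sliding clamp and its loader follow. Many of these genes are E2F targets: cyclin-dependent kinases inactivate the retinoblastoma protein, E2F factors are freed, and the genes are transcribed late in G1. Activated T cells divide quickly, so this programme is a common feature of T cell cultures.

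The promoters of several members carry short words that E2F factors recognise, and the stretches below are shown because they hold the members' densest matches. RefSeq promoter windows of build GRCm38.p6, from 250 bases before to 50 bases after the annotated start, were available for 36 of the 42 members. They were searched on both strands for TTTCCCGC, TTTGGCGC, TTTCGCGC and TTTGCCGC. Sequences read 5′ to 3′ on the gene's strand, and capitals mark the matches, which overlap in Mcm6 and Mcm5. A match on the opposite strand appears as its reverse complement. For Mcm6 the 250 bases before the start are shown, and for the other genes up to 30 bases around each match.
Mcm6 (chr1:128359706-128359955, minus strand): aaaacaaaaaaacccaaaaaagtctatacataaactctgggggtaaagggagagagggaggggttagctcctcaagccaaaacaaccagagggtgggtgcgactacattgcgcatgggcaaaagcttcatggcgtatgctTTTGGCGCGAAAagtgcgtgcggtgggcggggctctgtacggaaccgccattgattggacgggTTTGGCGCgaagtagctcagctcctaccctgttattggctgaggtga
Rfc3 (chr5:151651195-151651224, minus strand): gcacgcTTTCGCGCtcGCGGGAAAactcta
Mcm7 (chr5:138172031-138172058, minus strand): atttcgaaccGCGGGAAAcagggtgtcc
Mcm7 (chr5:138171850-138171877, minus strand): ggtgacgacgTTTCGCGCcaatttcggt
Mcm3 (chr1:20820276-20820303, minus strand): aacttccgtgGCGGGAAAacttgggaag
Mcm3 (chr1:20820263-20820284, minus strand): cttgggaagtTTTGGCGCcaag
Mcm5 (chr8:75109347-75109376, plus strand): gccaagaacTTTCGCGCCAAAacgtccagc

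At least 1 E2F match was found in 16 of 36 member windows (44.4%), against 2.6% of all 27025 genes with a window and 4.65% of the 8918 such genes that were expressed here. Mcm6 had 3 matches, and Rfc3, Mcm7, Mcm3 and Mcm5 had 2 each. Single matches were found at Lig1, Uhrf1, Pold1, Cdk2, Cdt1, Hells, Orc1, Cdc6, Gins3, Pola1 and E2f2. The CCAAT box was found in 61.1% of member windows and in 43.6% of windows of expressed genes, counting CCAAT on either strand. For the GC box, GGGCGG on either strand, the shares were 77.8% and 66.2%. Among 17 genes of G2 and mitosis with a window, 1 held an E2F match (5.88%) and 14 a CCAAT box (82.4%). Of 83 further replication pathway genes with a window, 18 held an E2F match (21.7%), 49.4% a CCAAT box and 80.7% a GC box, the last above the members' share. These are counts of letters in a window, and binding was not measured.

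Transcripts of all replication genes were present in every library, most at moderate to high levels, and none differed between the genotypes beyond the spread of the libraries in the test used. Mean levels over the 6 libraries ran from 3.08 TPM for Ccne2 to 209.5 TPM for Rfc3, with a median of 36.9 TPM, and 0 of their values were listed at 0. The lowest 5, Ccne2, Pole, E2f2, E2f8 and Pola1, averaged under 5 TPM. In a limma test of log2(TPM + 1) over the 12141 genes that averaged 1 TPM or more, which included all 42 members, 0 members passed an adjusted p of 0.05, where 0.0577% of all genes did. The lowest adjusted p of a member was 0.9997, and 0 members had an unadjusted p under 0.05, where 3.12% of all genes did, 1.44% higher and 1.68% lower in Ifnar1-SA. The ratio of mean TPM, Ifnar1-SA over WT, lay between 0.885 for Hells and 1.20 for Ccne1. The 95% interval of the log2 difference included 0 for every member, and for 41 of 42 it stayed within a 2-fold change either way, with Rrm2 as the exception. That count depends on the 1 added to TPM. With 0.1 added instead, the upper limits of Ccne1 (1.01) and Chaf1b (1.03) also lay beyond a 2-fold change. On the log2(TPM + 1) scale the interval stayed within a 1.5-fold change for 7 members, so a difference of that size is not excluded for most of them. Small differences are not excluded for any member, because every interval includes 0. The intervals are not adjusted for the number of genes tested. They do not give the smallest difference that the adjusted test could detect.

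**Figure D1:**
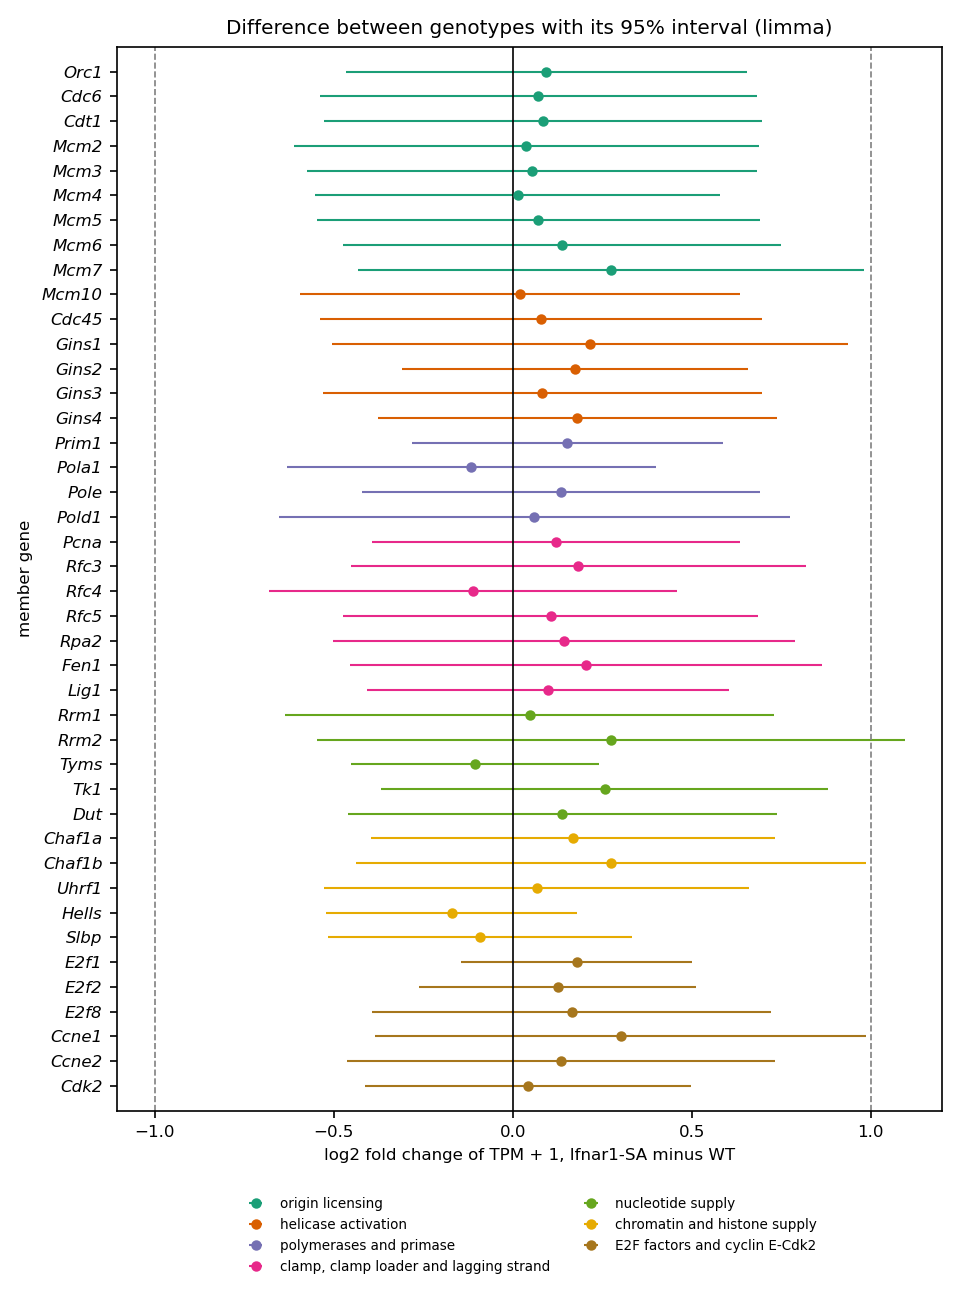
Log2 fold change of TPM + 1 between the genotypes (x axis, Ifnar1-SA minus WT) for each of the 42 members (y axis, coloured by role), as points with 95% intervals from limma over 3 libraries per genotype. All intervals cross 0, and dashed lines mark a 2-fold change.

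Most members had a slightly higher mean in Ifnar1-SA, and that direction depended on single libraries. By mean log2 value 37 members were higher and 5 lower (Hells, Pola1, Rfc4, Tyms and Slbp; of these only Hells and Pola1 were also lower with TMM scaling, and all but Slbp with median-of-ratios scaling), where 37.1% of all genes tested were higher. The median log2 difference of the members was 0.11, and that of all genes tested was −0.056. The median of all genes, and with it their direction, moved with the scaling: 38 members and 57.6% of all genes were higher with median-of-ratios scaling, 40 and 64.9% with TMM scaling, and 37 and 50.4% with quantile scaling. TMM moved the median of all genes to 0.067, and the members' median less that of all genes was 0.17, as before it. Without WT 3 only 14 members were higher, with a median of −0.045 (−0.11 for all genes, of which 27.3% were higher). Leaving out Ifnar1-SA 1, the highest library for most members, gave 16 members higher and a median of −0.074 (−0.15 for all genes, of which 24.2% were higher). With WT 1 left out, 39 were higher with a median of 0.28 (−0.068 for all genes, of which 39.6% were higher). The members vary together across libraries, so these are not counts of independent genes.

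**Figure D2:**
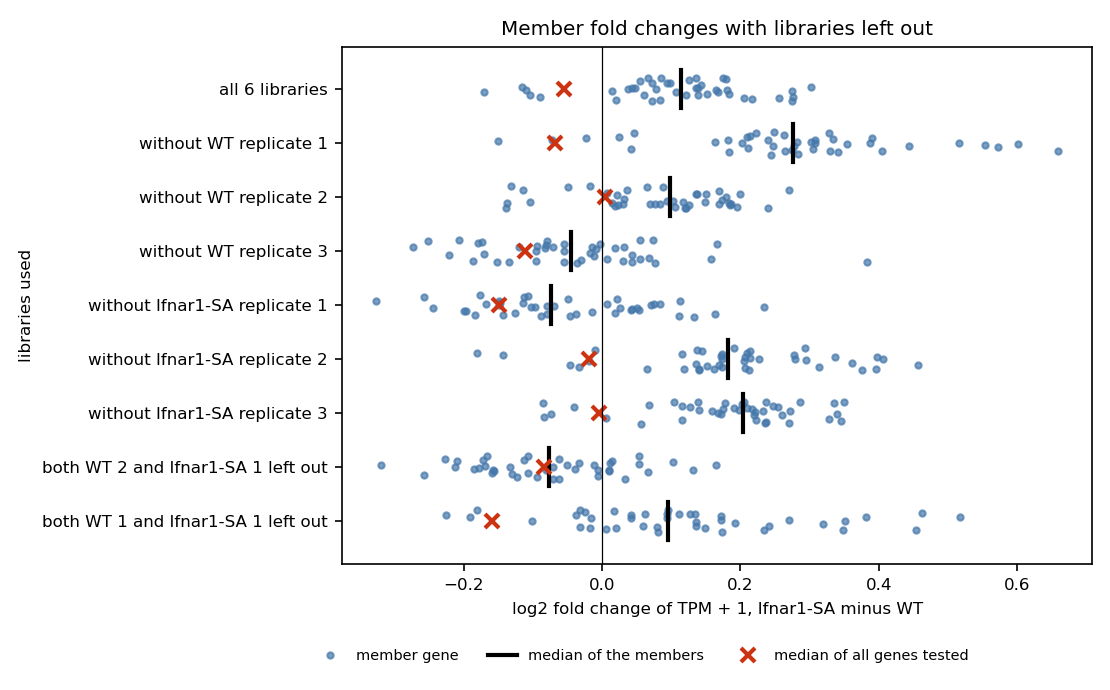
Log2 fold change of TPM + 1, Ifnar1-SA minus WT (x axis), of each member (points) with all 6 libraries and with single libraries or pairs of libraries left out (y axis). Black bars are the members' medians and red crosses the medians of all genes tested, and the members' median moves from 0.28 without WT 1 to −0.076 without WT 2 and Ifnar1-SA 1.

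The WT libraries stood in much the same order for most members, while the Ifnar1-SA libraries shared only which was highest. WT 1 was the highest WT library for 40 of 42 members and WT 3 the lowest for 38, while Ifnar1-SA 1 was the highest Ifnar1-SA library for 40. Over all genes tested these shares were 32.2%, 47.0% and 72.4%, so the place of Ifnar1-SA 1 was that of most genes. WT 1 and Ifnar1-SA 1 were both highest of their genotype for 38 members, which held for 21.9% of all genes tested. The lowest Ifnar1-SA library was Ifnar1-SA 2 for 24 members and Ifnar1-SA 3 for 17. The members' TPM summed to 2258, 1742 and 1543 in WT 1, 2 and 3 and to 2441, 1735 and 1789.7 in Ifnar1-SA 1, 2 and 3. Within WT the highest library exceeded the lowest by a median of 1.65-fold, and within Ifnar1-SA by 1.53-fold. The SD of log2 values within a genotype had a median of 0.351 over the members and 0.248 over all genes tested.

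**Figure D3:**
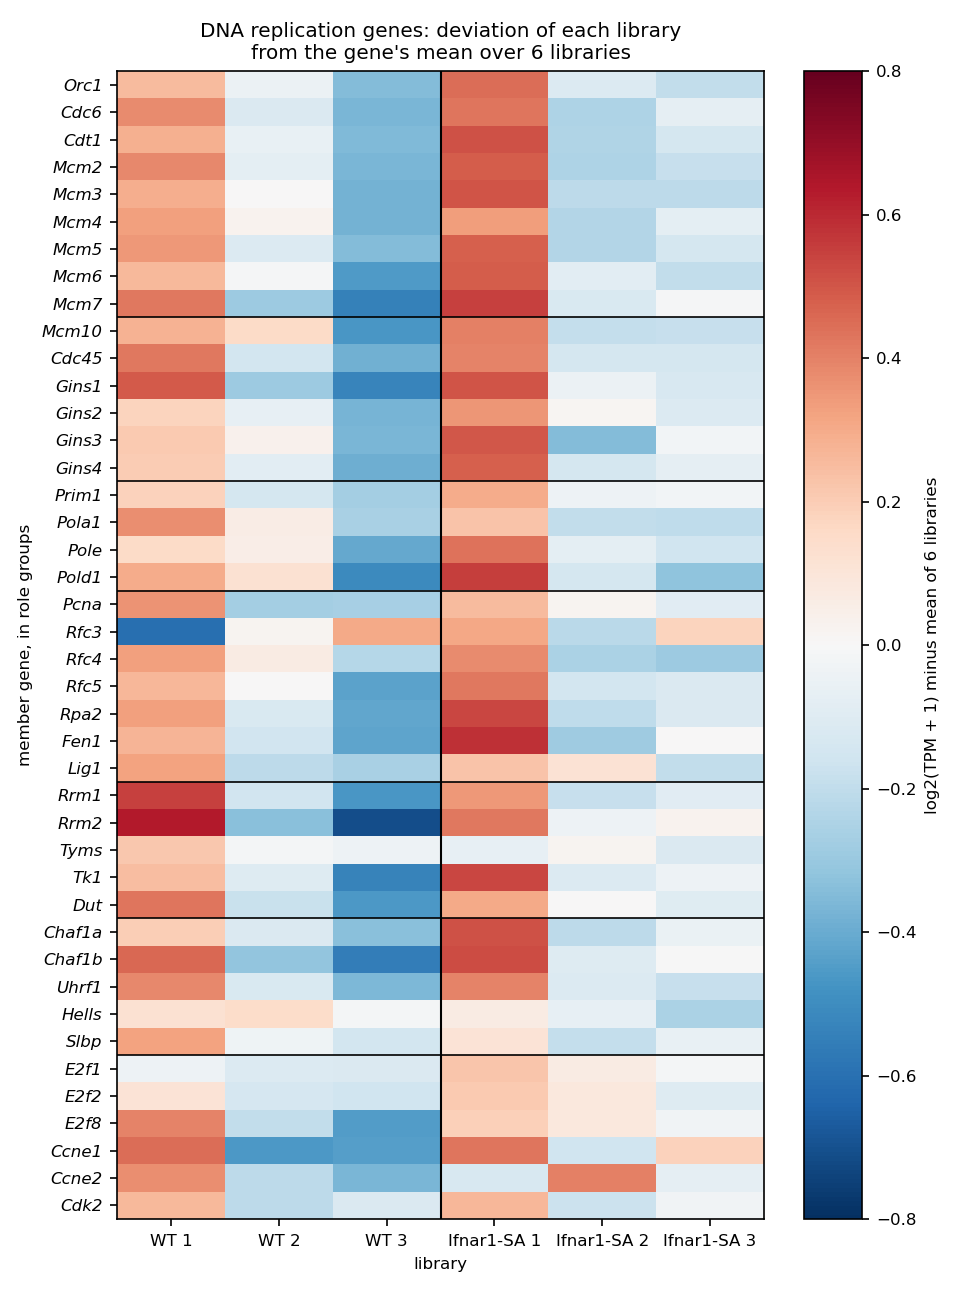
Each library's log2(TPM + 1) minus the gene's mean over 6 libraries (colour scale) for the 42 members (rows, in role groups) and the 6 libraries (columns, WT left of the line). WT 1 and Ifnar1-SA 1 are red in most rows and WT 3 is blue, while Rfc3 runs the other way in WT.

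Part of that order depended on how the libraries were scaled. The median deviation from each gene's own mean was 0.31, −0.11 and −0.37 over the members in WT 1, 2 and 3 and 0.41, −0.14 and −0.10 in Ifnar1-SA 1, 2 and 3. Over all genes tested the same medians were 0.003, 0.15 and −0.068 and 0.17, −0.11 and −0.14, with WT 2 and Ifnar1-SA 1 the highest. With median-of-ratios scaling WT 1 stayed the highest WT library for 41 members, but WT 2 was the lowest for 31 and WT 3 for 10. The count for Ifnar1-SA 1 as highest of its genotype was then 27. TMM scaling gave WT 1 highest for 41, WT 2 lowest for 34 and Ifnar1-SA 1 highest for 28, and quantile scaling 41, 16 and 31. In these bulk samples, fewer cells in S phase and less replication mRNA per cell cannot be told apart.

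Of the origin licensing genes 9 of 9 had a higher mean log2 value in Ifnar1-SA, with a median difference of 0.072 and 0 past the test. Mcm6, a subunit of the MCM2-7 ring (GRCm38 chr1:128331590-128359664, minus strand), was at 123, 102 and 74.9 TPM for WT 1, 2 and 3 and 145, 97.4 and 89.9 TPM for Ifnar1-SA 1, 2 and 3. WT 3 was lowest and Ifnar1-SA 1 highest, the genotypes overlapped, and the log2 difference was 0.14 (95% interval −0.47 to 0.75). Mcm7, another subunit of the ring (chr5:138164583-138172422, minus strand), was at 92.6, 56.2 and 47.0 TPM across WT and 101, 63.2 and 68.4 TPM across Ifnar1-SA, with a log2 difference of 0.28 (95% interval −0.43 to 0.98). The genotypes overlapped here too, and exons of Mcm7 overlap Ap4m1, Cops6, Mir25 and Mir93, whose reads may not be told apart from its own. Strand use in counting is not stated, and exons of 15 members overlap another gene. Orc1, the origin recognition subunit that varies over the cell cycle (chr4:108579423-108614833, plus strand), was at 13.6, 10.9 and 8.67 TPM across WT and 15.8, 10.4 and 9.72 TPM across Ifnar1-SA, with WT 2 and Ifnar1-SA 2 close together (log2 difference 0.094, 95% interval −0.47 to 0.65). Cdc6, which works with the origin recognition complex to load the ring, was at 8.43 ± 2.55 (WT) and 8.88 ± 2.52 TPM (Ifnar1-SA) (SD, n = 3), and its partner Cdt1 at 16.7 ± 3.94 (WT) and 17.9 ± 5.65 TPM (Ifnar1-SA). Mcm2, Mcm3, Mcm4 and Mcm5 had log2 differences of 0.037, 0.054, 0.014 and 0.072.

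Although the 6 ring subunits are used in equal number, their transcripts stood at unequal levels in much the same order in each library. On the TPM scale Mcm6 was the highest in all 6 libraries, and Mcm2 the lowest in 5 and Mcm4 in Ifnar1-SA 1. The highest subunit exceeded the lowest by 3.16-fold in WT 1 to 3.94-fold in Ifnar1-SA 2. Mean levels were 105 TPM for Mcm6, 71.5 for Mcm7, 65.1 for Mcm3, 51.0 for Mcm5, 31.6 for Mcm4 and 30.4 for Mcm2. Mcm7 and Mcm3 changed places between libraries, and so did Mcm4 and Mcm2, so neither pair was separated beyond its spread.

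**Figure D4:**
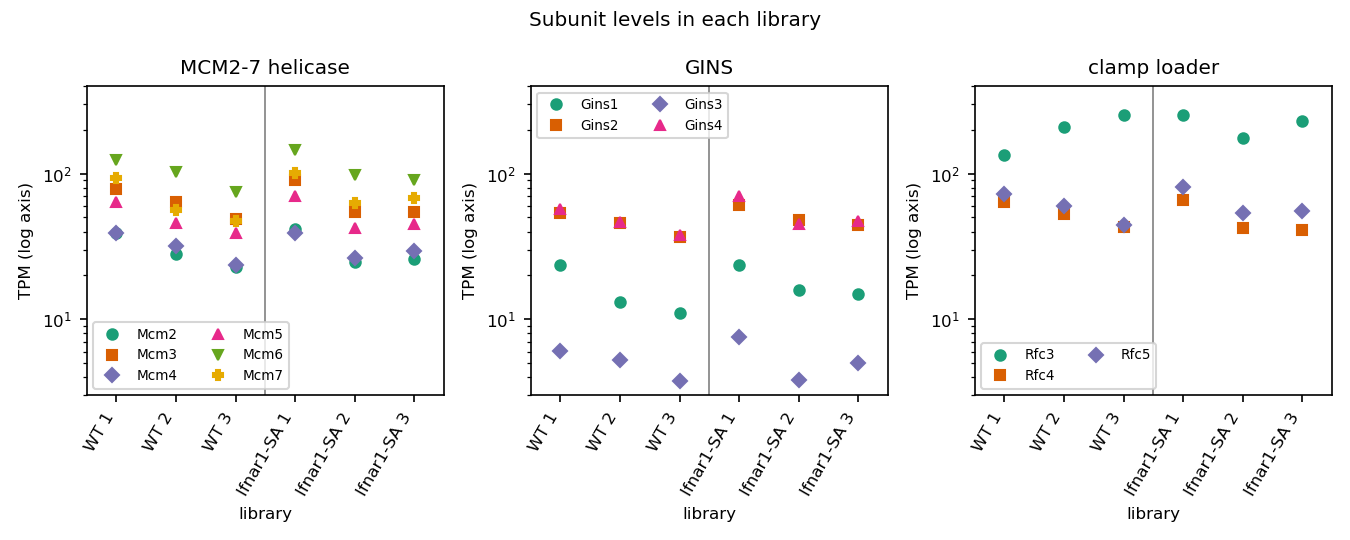
TPM (y axis, log scale) of the subunits of MCM2-7, GINS and the small clamp loader subunits (symbols) in each library (x axis, WT left of the line). Mcm6 is the highest ring subunit and Gins3 the lowest GINS subunit in all 6 libraries, and Rfc3 is above Rfc4 and Rfc5 throughout and lowest in WT 1.

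Helicase activation genes differed little between the genotypes, with 6 of 6 higher in mean, a median log2 difference of 0.13 and 0 past the test. Gins4 (chr8:23226616-23237659, minus strand), the most abundant of the 4 GINS subunits by mean level, was at 57.6, 46.9 and 37.7 TPM across WT and 69.8, 45.1 and 47.4 TPM across Ifnar1-SA, a difference of 0.18 (95% interval −0.38 to 0.74). For Gins2 (chr8:120578633-120589304, minus strand) the values were 53.8, 45.5 and 36.5 TPM across WT and 61.0, 48.1 and 44.1 TPM across Ifnar1-SA. Its difference was 0.17 (95% interval −0.31 to 0.66), and part of its exons overlap Gse1. Gins1 (chr2:150905400-150931280, plus strand) was at 23.5, 13.2 and 11.1 TPM across WT and 23.7, 15.8 and 14.9 TPM across Ifnar1-SA, so that WT 1 and Ifnar1-SA 1 stood together above the other 4 libraries (log2 difference 0.22, 95% interval −0.50 to 0.94). Gins3 had the lowest TPM of the complex in each library, and the highest subunit exceeded it by 8.93-fold to 12.6-fold. Cdc45, which completes the helicase, was at 36.8 ± 11.3 (WT) and 38.5 ± 9.01 TPM (Ifnar1-SA) (SD, n = 3). Mcm10, which helps to start the assembled helicase, was at 6.29 ± 1.85 (WT) and 6.36 ± 1.83 TPM (Ifnar1-SA), with a log2 difference of 0.019.

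The polymerase genes covered a wide range of levels, with 3 of 4 higher in mean in Ifnar1-SA and 0 past the test. Prim1, the catalytic subunit of primase (chr10:128015168-128030037, plus strand), was at 40.7, 32.4 and 29.5 TPM across WT and 44.1, 34.7 and 35.2 TPM across Ifnar1-SA. Only Ifnar1-SA 1 lay above the WT range, and the log2 difference was 0.15 (95% interval −0.28 to 0.59). Pola1, the catalytic subunit of polymerase alpha, which extends the primer (chrX:93304767-93632155, minus strand), was at 5.31, 4.08 and 3.07 TPM across WT and 4.71, 3.26 and 3.23 TPM across Ifnar1-SA and was lower in mean in Ifnar1-SA (log2 difference −0.12, 95% interval −0.63 to 0.40). Pole, the catalytic subunit of the leading-strand polymerase (chr5:110286306-110337474, plus strand), was at 3.52, 3.20 and 2.05 TPM across WT and 4.49, 2.84 and 2.63 TPM across Ifnar1-SA, a difference of 0.14 (95% interval −0.42 to 0.69). Pold1, its counterpart for the lagging strand, was at 25.2 ± 7.07 (WT) and 26.5 ± 9.30 TPM (Ifnar1-SA) (SD, n = 3). The mean level of Prim1 was 36.1 TPM against 3.95 TPM for Pola1, its partner in the same complex.

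Rfc3 stood apart from the other members in the order of its WT libraries. It encodes a small subunit of replication factor C, the loader of the sliding clamp (GRCm38 chr5:151642756-151651242, minus strand), and was at 134, 208 and 253 TPM for WT 1, 2 and 3 and 254, 176 and 232 TPM for Ifnar1-SA 1, 2 and 3. WT 1 was thus the lowest library and WT 3 close to the highest, the reverse of the common order within WT. Ifnar1-SA 1 was the highest Ifnar1-SA library, as for most members, and the genotypes overlapped (log2 difference 0.18, 95% interval −0.45 to 0.82). Outside the members, Ccnd2 had a like order, at 303, 413 and 421 TPM across WT and 425, 326 and 400 TPM across Ifnar1-SA. Rfc4, another small subunit, was at 63.7, 53.2 and 43.1 TPM across WT and 66.1, 42.3 and 41.3 TPM across Ifnar1-SA, and Rfc5 at 72.2, 60.2 and 44.3 TPM across WT and 80.8, 54.0 and 55.2 TPM across Ifnar1-SA. On the TPM scale the ratio of Rfc3 to Rfc4 was 2.11, 3.91 and 5.87 in WT and 3.84, 4.17 and 5.61 in Ifnar1-SA. No exon of another gene overlaps Rfc3 in the GENCODE M21 annotation, which gives it 7 transcripts of 503 to 2726 bases. Exons of Rfc4 overlap Eif4a2, and those of Rfc5 overlap Wsb2. The E2F matches of Rfc3 are among those printed above.

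Among the clamp and lagging-strand genes WT 1 was the highest WT library and Ifnar1-SA 1 the highest Ifnar1-SA library for Pcna, Fen1, Lig1 and Rpa2. Pcna, the sliding clamp (chr2:132249162-132253314, minus strand), was at 244, 158 and 158 TPM across WT and 227, 193 and 179 TPM across Ifnar1-SA. WT 1 was the highest library, WT 2 and WT 3 were level, and the log2 difference was 0.12 (95% interval −0.39 to 0.64). Fen1, the nuclease that trims the flaps of Okazaki fragments (chr19:10199132-10204169, minus strand), was at 57.4, 42.6 and 35.1 TPM across WT and 71.7, 38.8 and 47.6 TPM across Ifnar1-SA, a difference of 0.20 (95% interval −0.45 to 0.86). Its exons overlap Gm10143 and Tmem258. Lig1, which seals the fragments, was at 44.9 ± 10.8 (WT) and 47.7 ± 7.23 TPM (Ifnar1-SA) (SD, n = 3), and Rpa2, a subunit of the single-strand binding protein, at 41.3 ± 11.2 (WT) and 45.9 ± 13.9 TPM (Ifnar1-SA). In this group of 7 genes, Rfc3 included, 6 were higher in mean in Ifnar1-SA and 0 passed the test.

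Nucleotide supply genes held the members with the widest and the narrowest range over the 6 libraries. Rrm2, the small subunit of ribonucleotide reductase, which makes deoxynucleotides (chr12:24708241-24714146, plus strand), was at 140.5, 71.2 and 54.8 TPM for WT 1, 2 and 3 and 121, 87.8 and 92.0 TPM for Ifnar1-SA 1, 2 and 3. The highest library exceeded the lowest by 2.56-fold, both of them WT, and the log2 difference was 0.27 (95% interval −0.55 to 1.09). Tyms, thymidylate synthase (chr5:30058202-30073617, minus strand), was at 89.9, 76.5 and 75.0 TPM across WT and 73.8, 78.6 and 71.3 TPM across Ifnar1-SA. Its highest and lowest libraries differed by 1.26-fold, the smallest such fold of the 42 members, although E2f1 had the smaller SD of log2 values within a genotype (0.0904 against 0.111), and the log2 difference was −0.10 (95% interval −0.45 to 0.24). A pseudogene copy, Tyms-ps, was in the table at no more than 2.40 TPM. Tk1, the salvage enzyme for thymidine (chr11:117815526-117826092, minus strand), was at 106, 82.8 and 61.1 TPM across WT and 129, 82.1 and 86.4 TPM across Ifnar1-SA, with Ifnar1-SA 1 highest and WT 3 lowest (log2 difference 0.26, 95% interval −0.37 to 0.88). Rrm1, the large subunit of the reductase, was at 42.1 ± 16.2 (WT) and 42.2 ± 8.83 TPM (Ifnar1-SA) (SD, n = 3), and Dut, which removes dUTP, at 83.2 ± 27.4 (WT) and 89.3 ± 13.5 TPM (Ifnar1-SA). The ratio of Rrm2 to Rrm1 TPM was 2.33, 1.94 and 1.87 in WT and 2.31, 2.45 and 2.40 in Ifnar1-SA, and the genotypes overlapped.

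Genes that rebuild chromatin behind the fork were split, with 3 higher and 2 lower in mean and 0 past the test. Chaf1b, a subunit of the histone chaperone CAF-1 (chr16:93883901-93906115, plus strand), was at 23.6, 13.4 and 11.2 TPM across WT and 24.7, 15.7 and 16.9 TPM across Ifnar1-SA. WT 1 and Ifnar1-SA 1 stood above the other 4 libraries, and the difference was 0.27 (95% interval −0.44 to 0.99). Its partner Chaf1a (chr17:56040439-56072289, plus strand) was at 22.2, 17.7 and 15.1 TPM across WT and 27.8, 16.5 and 18.5 TPM across Ifnar1-SA, a difference of 0.17 (95% interval −0.40 to 0.73), with exons that overlap Ubxn6. Hells, a chromatin remodeller needed for DNA methylation (chr19:38930915-38971051, plus strand), was at 17.5, 17.8 and 15.8 TPM across WT and 16.7, 15.2 and 13.2 TPM across Ifnar1-SA. The genotypes overlapped in 1 library, Ifnar1-SA 1, and the difference was −0.17 (95% interval −0.52 to 0.18). Slbp, which binds the stem-loop of histone mRNA (chr5:33634952-33652574, minus strand), was at 102, 79.1 and 73.3 TPM across WT and 87.7, 71.2 and 78.0 TPM across Ifnar1-SA (log2 difference −0.091, 95% interval −0.52 to 0.33). Uhrf1, which guides the maintenance of DNA methylation, was at 44.3 ± 12.3 (WT) and 46.1 ± 10.8 TPM (Ifnar1-SA) (SD, n = 3).

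E2f1 was the only member whose genotypes did not overlap. This activating E2F factor (chr2:154559407-154569892, minus strand) was at 5.46, 5.17 and 5.15 TPM for WT 1, 2 and 3 and 6.76, 5.97 and 5.58 TPM for Ifnar1-SA 1, 2 and 3. Every Ifnar1-SA library was above every WT library, by a small margin, and the log2 difference was 0.18 (95% interval −0.14 to 0.50), with a limma adjusted p of 0.9997. Non-overlap towards Ifnar1-SA was found for 1.97% of all genes tested and non-overlap in either direction for 5.77%, so 1 of 42 members is near the background. E2f1 overlapped with median-of-ratios and with TMM scaling. Its highest and lowest libraries differed by 1.31-fold, against a median of 1.85-fold over the members. Without WT 1 the genotypes did not overlap for 14 members, all higher in Ifnar1-SA, where 8.36% of all genes tested did so and 23.1% did not overlap in either direction, and 0 members passed (lowest limma adjusted p = 0.673).

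Among the other regulators, Ccne1 had the largest difference of the members. Cyclin E1, the partner of Cdk2 at the start of S phase (chr7:38097984-38107534, minus strand), was at 37.7, 19.6 and 19.9 TPM across WT and 37.2, 24.4 and 31.2 TPM across Ifnar1-SA. WT 1 stood beside the highest Ifnar1-SA library while WT 2 and WT 3 lay below all 3, and the log2 difference was 0.30 (95% interval −0.38 to 0.99). Ccne2, the second E-type cyclin, was at 4.17, 2.46 and 2.10 TPM across WT and 2.65, 4.29 and 2.80 TPM across Ifnar1-SA, and the ratio of Ccne1 to Ccne2 TPM ran from 5.69 to 14.0 over the libraries. Ifnar1-SA 2, low for most members, was the highest library for Ccne2. E2f2, another activating factor (chr4:136172394-136196057, plus strand), was at 3.62, 2.90 and 2.84 TPM across WT and 3.96, 3.54 and 2.99 TPM across Ifnar1-SA (log2 difference 0.13, 95% interval −0.26 to 0.51). E2f8, an E2F repressor, was at 3.54 ± 1.42 (WT) and 3.94 ± 0.369 TPM (Ifnar1-SA) (SD, n = 3), and Cdk2 at 20.8 ± 3.84 (WT) and 21.4 ± 3.55 TPM (Ifnar1-SA).

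Of 104 further genes of the same pathway, 98 were tested and 0 passed the limma test, with 56 higher and 42 lower in mean and a median log2 difference of 0.022. At an unadjusted p under 0.05, 0 were higher and 1 was lower, where 1.68% of all genes were lower. That gene was Supt16, a subunit of the histone chaperone FACT (GRCm38 chr14:52160414-52197416, minus strand), at 23.2, 20.3 and 19.8 TPM across WT and 14.6, 11.9 and 13.9 TPM across Ifnar1-SA. All 3 Ifnar1-SA libraries lay below all 3 WT libraries, with a log2 difference of −0.61 (95% interval −0.96 to −0.26) and an adjusted p of 0.878, and its exons overlap Rpgrip1. Top1, the topoisomerase that relaxes DNA ahead of the fork, was at 29.4, 25.8 and 24.7 TPM across WT and 21.9, 20.5 and 20.9 TPM across Ifnar1-SA, again without overlap (log2 difference −0.32, 95% interval −0.65 to 0.011). Cdkn1a, the inhibitor p21 of cyclin-dependent kinases, was at 856, 1137 and 1113 TPM across WT and 769, 794 and 819 TPM across Ifnar1-SA, also without overlap (log2 difference −0.37, 95% interval −0.75 to 0.0044), and exons of it overlap another annotated gene. Cdkn1b, the related inhibitor p27, was at 2.95, 4.31 and 4.75 TPM across WT and 1.88, 3.52 and 2.71 TPM across Ifnar1-SA, with overlap. Supt16, Top1 and Cdkn1a stayed lower in mean but overlapped under TMM and median-of-ratios scaling. With Orc4, an origin recognition subunit at 18.7, 18.1 and 18.4 TPM across WT and 14.9, 17.9 and 17.1 TPM across Ifnar1-SA, 4 of the 98 genes did not overlap and were lower (4.08%), near the 3.8% of all genes tested, and 0 did not overlap and were higher.

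The further licensing and firing genes numbered 15 tested, 7 higher and 8 lower. Gmnn, which restrains Cdt1, was at 58.4 ± 15.4 (WT) and 71.4 ± 12.0 TPM (Ifnar1-SA) and Orc5 at 20.6 ± 3.75 (WT) and 16.5 ± 3.65 TPM (Ifnar1-SA) (SD, n = 3). Of 27 polymerase and fork genes 15 were higher, and of 14 nucleotide genes 10. In the nucleotide group Nme1, a nucleoside diphosphate kinase, was at 673 ± 218 (WT) and 806 ± 45.3 TPM (Ifnar1-SA) and Dctd, dCMP deaminase, at 7.26 ± 2.83 (WT) and 8.53 ± 1.17 TPM (Ifnar1-SA). Of 8 chromatin genes 7 were higher, among them the histone chaperone Asf1b, at 93.3, 54.4 and 55.9 TPM across WT and 90.2, 69.3 and 82.4 TPM across Ifnar1-SA. Its relative Asf1a was at 18.5 ± 5.58 (WT) and 15.6 ± 2.25 TPM (Ifnar1-SA) and lower. The 23 E2F and retinoblastoma pathway genes split into 12 higher and 11 lower. The 11 checkpoint genes split into 5 and 6, with Rad17 at 9.95 ± 0.434 (WT) and 8.77 ± 0.859 TPM (Ifnar1-SA) and Hus1 at 5.18 ± 0.540 (WT) and 4.56 ± 1.01 TPM (Ifnar1-SA). None of these groups held a gene past the limma threshold.

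The 20 genes of G2 and mitosis had WT 1 and Ifnar1-SA 1 highest for most genes, as the members did. WT 1 was the highest WT library for 17 of them and Ifnar1-SA 1 the highest Ifnar1-SA library for 19. Their median deviations were 0.28, 0.00053 and −0.44 in WT and 0.42, −0.036 and −0.16 in Ifnar1-SA. Of the 98 further pathway genes tested, WT 1 was the highest WT library for 63 and Ifnar1-SA 1 the highest Ifnar1-SA library for 86, where the shares over all genes tested were 32.2% and 72.4%. The median log2 difference of the G2 and mitosis genes between the genotypes was 0.15, and 0 passed the limma test. What part the share of dividing cells has in the members' values was not tested. The 7 T cell markers summed to 1939.6 to 2071 TPM in WT and 2069.8 to 2320.1 TPM in Ifnar1-SA. Summed levels were 4.05 to 11.4 and 3.59 to 9.17 TPM for 5 B cell markers, and 8.59 to 14.9 and 10.2 to 12.1 TPM for 7 myeloid markers. They were 12.8 to 20.4 and 12.4 to 18.2 TPM for 6 CD8 T and NK cell markers, and at most 1.83 TPM for 6 erythroid markers, of which Hbb-bs was listed at 0 in every library. Most of the myeloid sum was Cd68 (7.14 to 12.3 TPM over the 6 libraries). Most of the CD8 T and NK cell sum was Cd8b1 (9.07 to 15.4 TPM). Foxp3, the factor that defines Treg cells, was at 0.697, 0.295 and 0.276 TPM across WT and 0.746, 1.82 and 0.759 TPM across Ifnar1-SA, so this marker does not bear out the Treg label. Il2ra, also raised on other activated T cells, was at 390.0 ± 34.8 (WT) and 437 ± 12.7 TPM (Ifnar1-SA), Ctla4 at 575 ± 111 (WT) and 805 ± 61.7 TPM (Ifnar1-SA) and Tnfrsf18 at 2823 ± 435 (WT) and 2711 ± 431 TPM (Ifnar1-SA), while Ikzf2 was at 1.39 ± 0.559 (WT) and 1.03 ± 0.236 TPM (Ifnar1-SA) and Lrrc32 at 2.09 ± 0.781 (WT) and 1.45 ± 0.318 TPM (Ifnar1-SA). Of the 5 Treg markers tested 2 were higher and 3 lower in mean, with a median log2 difference of −0.058, and 0 passed the limma test.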

How the data were processed

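mRNA libraries of cultured mouse T cells were compared, 3 WT and 3 Ifnar1-SA. Gene-level TPM values were deposited by the authors, made with Salmon on mm10 / GRCm38, per the submitters' processing notes; its version and the annotation are not stated in those notes. Each library sums to 1e+06, so depth is unknown and no counting interval is given. Values were tested as log2(TPM + 1) for genes averaging 1 TPM or more, with limma 3.58.1 (R 4.3.3, intensity trend, two-sided, Benjamini-Hochberg over 12141 genes). Fold changes on this scale understate those of low genes. The fit was also run on simulated data, where genes varied independently and the changes were larger than those of the members. That run therefore does not bear on differences as small as the members'. Positions are from GENCODE M21 and promoters from RefSeq, matched by symbol. The members and lists were chosen with earlier results of these data known. Values per library are given for the 3 members of smallest p and the most abundant member of each role group. Those of Rfc4, Rfc5, Ccne2, Top1, Supt16, Cdkn1a, Cdkn1b, Orc4, Asf1b and Foxp3 are given too. The rule for further pathway genes took the 2 of smallest p per list. Promoters of Mcm3 and Mcm5 were added to those of the rule because they tie with it. Other settings are in the closing part. Python 3.11.15, pandas 2.3.3 and matplotlib 3.10.9 made tables and figures.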

Additional observations from a re-analysis of the deposited data

How the results depend on the processing

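In all 16 alternatives 0 members and 0 further pathway genes passed the adjusted threshold. These were pseudocounts of 0.1 and 0.5, no filter, a mean of at least 5 TPM (which kept 37 members), median-of-ratios, TMM and quantile scaling, a replicate block, each library left out, WT 2 and Ifnar1-SA 1 left out, and, chosen after seeing the data, WT 1 and Ifnar1-SA 1 left out. The count of members higher in Ifnar1-SA was 11 of 42 without WT 2 and Ifnar1-SA 1 (31.1% of all genes) and ran from 14 to 39 with 1 library left out (24.2% to 51.3% of all genes). Members without overlap numbered 0 with median-of-ratios or TMM scaling (7.9% and 7.45% of all genes), 3 without WT 2 and Ifnar1-SA 1 (31.7% of all genes), 16 without WT 1 and Ifnar1-SA 1 (a smaller share than the 50.8% of all genes), and 1 to 14 with 1 library left out (8.61% to 26.4% of all genes). The cause of these shifts was not tested. The members' median log2 difference ran from −0.076 without WT 2 and Ifnar1-SA 1 to 0.28 without WT 1; relative to the median of all genes it was 0.00740 to 0.344. Median-of-ratios and TMM scaling moved the share of all genes higher in Ifnar1-SA from 37.1% to 57.6% and 64.9%, and quantile scaling to 50.4%. Of 349 values of 22 named members, 26 changed sign, and 7 members (Ccne1, E2f1, E2f2, Gins2, Hells, Prim1 and Tk1) kept theirs. Over all genes tested, same-numbered libraries deviated together little or not at all (r of deviations −0.11, −0.11 and 0.15). Of the 3 numbers 1, the third, matched best with itself. Deviations from a mean of 3 libraries are tied to each other, so these values cannot show whether the numbers pair the samples. With the replicate block 0 members passed, 37 were higher, the members' median was 0.11 and 1 did not overlap; over all genes 0 passed against 7 without it.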
